A study of Mus musculus with 16 samples.

Results

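Trbv1 rearrangements are T cell receptor β chains (TCRβ) built on the V segment Trbv1, whose product is the Vβ2 chain. They were selected by their V gene call, TCRBV01-01, among TCRβ rearrangements of samples labelled as T cells of subcutaneous KPC.Luc tumors, and made up 9611 of the 198953 rearrangements found in 16 samples. Of these, 6331 were productive (in frame, with no stop codon), 3239 were out of frame and 41 held a stop codon. KPC.Luc is a luciferase-expressing mouse line of pancreatic ductal adenocarcinoma (PDAC), here grown in female C57BL/6 mice.

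The 4 treatment groups had 4 mice each, and every mouse received both a peptide and an antibody. Controls were given a scrambled peptide with IgG of the same isotype, ANT008 mice received the vasoactive intestinal peptide receptor (VIP-R) antagonist ANT008 and IgG, anti-PD-1 mice received scrambled peptide and anti-PD-1, and combination mice received ANT008 and anti-PD-1. Peptide was given at 10 µg each day and antibody at 200 µg every 3 days, over 10 days. The labels describe a pull-down of T cells by CD90.2, while the study's methods describe that step for another assay and say of the sequenced tumors only that they were harvested and extracted. Only TCRβ was read, so that CD4+ and CD8+ T cells cannot be told apart and the cell type cannot be checked with other markers.

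A TCRβ chain is assembled in the developing thymocyte by joining a V, a D and a J segment. Bases are trimmed from the segment ends and others are inserted at random, and the resulting junction is the third complementarity-determining region (CDR3), the loop that contacts the peptide held by the major histocompatibility complex. A productive rearrangement has passed selection on the receptor it encodes. An out-of-frame rearrangement sits silent on the other allele of a T cell and is carried along, which makes it a reference for what recombination gives without selection. Trbv1 lies at the far end of the locus from the D and J segments. A clone in a tumor is a group of T cells that share a rearrangement, so that a V gene can be frequent because many different clones use it or because a single clone is large.

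The V gene call was set beside the start of the CDR3, which the V segment encodes. Both come from the same deposited sequence, so this is a description and no independent check of the call. Among productive Trbv1 rearrangements, 76.5% had a CDR3 starting with CTCSA and 95.5% one starting with CTCS, and all 4845 productive CDR3s of any V gene that started with CTCSA carried the Trbv1 call. Trbv1 was a middling V gene by the number of rearrangements, ranking 8 to 12 in each sample, but ranked anywhere from 1 to 17 by templates, the starting molecules counted for each rearrangement. Productive templates per sample ranged from 7180 to 72588, and those of Trbv1 from 208 to 9257, carried by 107 to 712 unique rearrangements. Anti-PD-1 replicate 4 was the shallowest sample in each of these 3 counts. The sources differ on the molecule that was amplified. The labels and the methods name RNA, the study's account of its results names DNA, and the file headers give an input mass and a cell number estimated from it. If RNA was amplified, the templates count transcripts, and more cells of a clone cannot be told apart from more TCRβ message per cell.

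The junctions behind the results below are printed here as the CDR3 nucleotides of the deposited rearrangement, from the first cysteine codon to the codon before the closing phenylalanine. Lower case marks bases called as V (left) and J (right), and capitals mark the D and inserted bases between them. The first 4 are the leading Trbv1 clones of the samples in which that clone used the J segment Trbj2-2, shown because 2 of them were the largest clones of their tumors.
Control replicate 2: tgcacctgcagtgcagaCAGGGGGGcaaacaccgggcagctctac
ANT008 replicate 2: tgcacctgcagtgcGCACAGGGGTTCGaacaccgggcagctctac
Combination replicate 2: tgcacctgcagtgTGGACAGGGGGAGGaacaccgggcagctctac
Combination replicate 3: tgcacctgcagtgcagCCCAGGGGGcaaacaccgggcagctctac
The next 2 are the leading clones of the anti-PD-1 samples in which Trbv1 was most frequent, joined to Trbj2-4 and Trbj1-4.
Anti-PD-1 replicate 1: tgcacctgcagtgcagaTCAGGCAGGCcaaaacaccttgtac
Anti-PD-1 replicate 3: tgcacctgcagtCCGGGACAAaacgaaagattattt
The last 3 encode the Trbv1 CDR3s found in the most mice, each in the nucleotide form that recurred most often, joined to Trbj1-2, Trbj1-1 and Trbj2-7.
Shared Trbj1-2 CDR3: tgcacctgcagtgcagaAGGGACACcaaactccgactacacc
Shared Trbj1-1 CDR3: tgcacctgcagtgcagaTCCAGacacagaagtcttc
Shared Trbj2-7 CDR3: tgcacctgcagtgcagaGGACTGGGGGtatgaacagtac

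Trbv1 took up a very different share of productive templates from mouse to mouse. In control replicates 1 to 4 the share was 5.19%, 22.5%, 5.48% and 3.23%. With ANT008 it was 2.37%, 12.5%, 1.96% and 2.60%, and with anti-PD-1 it was 6.82%, 2.52%, 5.72% and 2.90%. With the combination it was 4.24%, 3.36%, 3.42% and 2.96%. Control replicate 2 and ANT008 replicate 2 stood far above the other 14 samples, and in these 2 Trbv1 ranked 1 among the V genes. The 4 groups overlapped, and the combination had the narrowest range. The 95% Wilson interval, which covers counting error only, ran from 22.1% to 22.9% in control replicate 2 and from 2.53% to 3.31% in the shallowest sample, anti-PD-1 replicate 4.

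**Figure D1:**
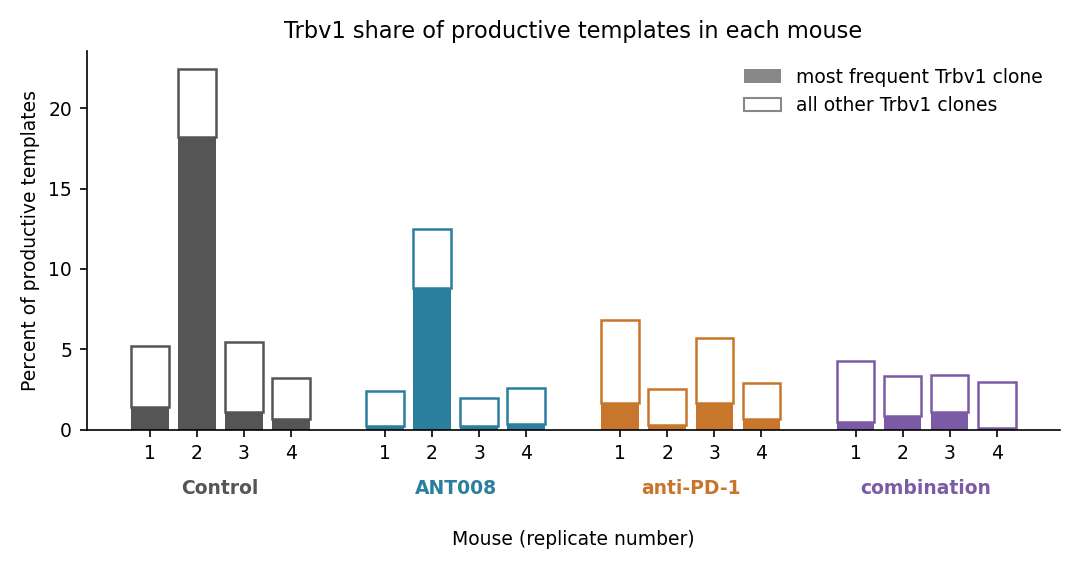
Percent of productive templates carried by Trbv1 rearrangements in each of the 16 mice, with the most frequent Trbv1 clone filled and all other Trbv1 clones open. Control replicate 2 (22.5%) and ANT008 replicate 2 (12.5%) are the tallest bars, and most of each is 1 clone.

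The treatment comparison asked whether VIP-R blockade, anti-PD-1 or both shifted the part of the tumor repertoire that used Trbv1. The mean share of productive templates was 9.09% ± 8.97 in control mice, 4.86% ± 5.10 under ANT008, 4.49% ± 2.11 under anti-PD-1 and 3.49% ± 0.537 under the combination (SD, n = 4 each). In the edgeR quasi-likelihood fit over all V genes, the log2 fold change of Trbv1 against control was -0.90 with ANT008 (SE 0.54, adjusted p 0.719), -1.02 with anti-PD-1 (SE 0.54, adjusted p 0.390) and -1.38 with the combination (SE 0.54, adjusted p 0.151). The interaction, which is the combination minus both single-agent effects, was 0.54 on the log2 scale (SE 0.75, edgeR adjusted p 0.828). A p above the threshold does not show that the groups were alike. None of the 4 contrasts passed, while 3.03% of the 33 V genes tested passed under ANT008, 0% under anti-PD-1, 3.03% under the combination and 3.03% in the interaction. The V gene called with ANT008 and in the interaction was Trbv24 (log2 fold changes 2.74 and -3.96), and the one called with the combination was Trbv14 (-2.03). With anti-PD-1, where edgeR and DESeq2 each called 0 V genes, 4 had an unadjusted p under 0.05 in edgeR and 5 in DESeq2. The sign of the ANT008 estimate depended on which mice were kept. Without control replicate 2, and with ANT008 replicate 2 still in the fit, it was 0.07 on the log2 scale (edgeR adjusted p 0.986). Without control replicate 2 the estimate was also smaller for anti-PD-1 (-0.04, edgeR adjusted p 1.0) and for the combination (-0.41, edgeR adjusted p 0.734). With the leading Trbv1 clone of every mouse left out, the estimates were -0.66 for ANT008, -0.20 for anti-PD-1 and -0.47 for the combination. Leaving out ANT008 replicate 2 instead gave -1.98 (edgeR adjusted p 0.00569). The combination passed without control replicate 3 (log2 fold change -1.56, edgeR adjusted p 0.0374) and without ANT008 replicate 2 (-1.38, edgeR adjusted p 0.0497). The gene was chosen with its template shares known, and no support is drawn from these tests.

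When each rearrangement was counted once, so that the size of a clone did not enter, the mice lay close together. The share of unique productive rearrangements that used Trbv1 was 5.04%, 5.51%, 5.39% and 4.71% in control replicates 1 to 4. It was 4.63%, 4.96%, 4.48% and 4.53% under ANT008, 4.92%, 4.97%, 5.11% and 4.24% under anti-PD-1, and 5.20%, 4.40%, 5.09% and 5.09% with the combination. All 16 values lay between 4.24% and 5.51%, and the 2 samples that stood apart by templates no longer did. The group means were 5.16% ± 0.359 in control mice, 4.65% ± 0.214 under ANT008, 4.81% ± 0.390 under anti-PD-1 and 4.95% ± 0.369 under the combination (SD, n = 4 each). The edgeR log2 fold changes against control were -0.15 with ANT008 (SE 0.10, adjusted p 0.506), -0.09 with anti-PD-1 (SE 0.10, adjusted p 0.864) and -0.07 with the combination (SE 0.10, adjusted p 0.936), and the interaction was 0.18 (SE 0.14, adjusted p 0.649). In this count 0% of the 33 V genes tested passed in any of the 4 contrasts by edgeR, and DESeq2 also called 0. At an unadjusted p under 0.05, edgeR gave 2, 2, 1 and 4 V genes in these contrasts and DESeq2 gave 2, 1, 1 and 2.

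**Figure D2:**
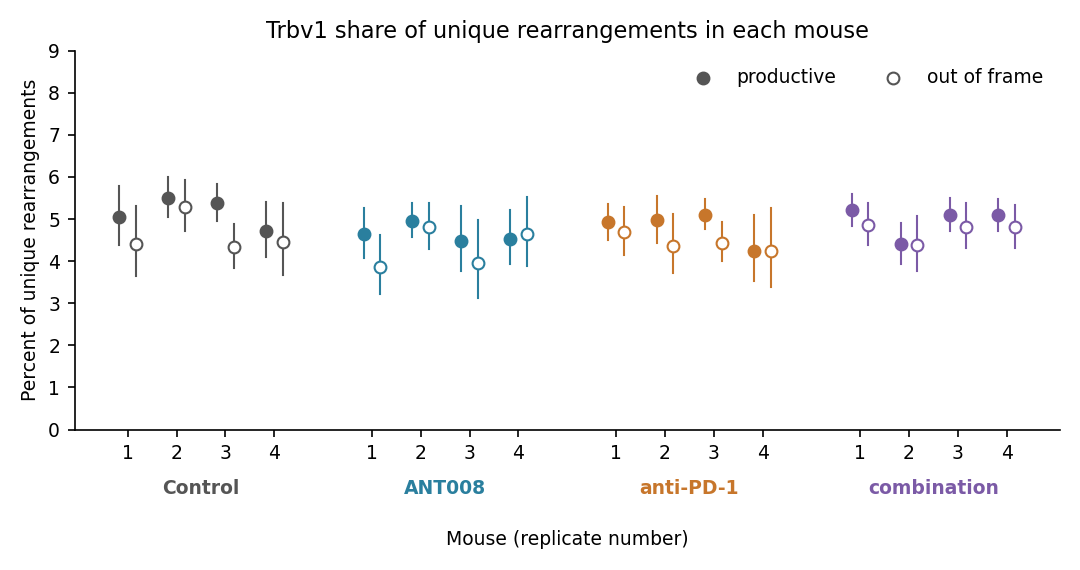
Percent of unique rearrangements that used Trbv1 in each of the 16 mice, productive (filled) and out of frame (open), with 95% Wilson intervals as vertical lines. Productive shares run from 4.24% to 5.51%, and the filled point is above the open one in 15 of 16 mice.

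Trbv1 was slightly more frequent among productive than among out-of-frame rearrangements of the same mouse. Over unique rearrangements, its out-of-frame share ran from 3.85% to 5.29%, with a mean of 4.52% ± 0.362 (SD, n = 16), beside 4.89% ± 0.361 among productive ones. The productive share was higher in 15 of 16 samples, by 0.372 points on average (SD 0.314), with ANT008 replicate 4 the exception. The two-sided exact sign-flip permutation test over samples gave an adjusted p of 0.000381 over 35 V genes. Of these V genes, 25.7% were called higher in productive rearrangements, and a surplus of this kind was seen for 9 V genes in all. Several of the 35 were at or near 0% and could hardly be called higher. All 9 were among the 20 V genes that held over 1% of productive rearrangements, of which 4 were called lower. The ratio of the mean productive to the mean out-of-frame share was 1.08 for Trbv1, which ranked 9 of the 20 V genes that held over 1% of productive rearrangements, among which the ratio ran from 0.263 to 1.73. Against the 41 Trbv1 rearrangements with a stop codon in place of out-of-frame ones, the difference was 3.22 points (adjusted p 0.000101, exact permutation test). These numbered only 0 to 6 per sample, and whether a V gene yields stop codons can depend on its own bases, so no support is drawn from that value. With rearrangements of 1 template left out, the difference from out-of-frame ones was 0.432 points and did not pass (adjusted p 0.112, exact permutation test).

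A single large clone held most of the Trbv1 templates in both mice that stood apart. The leading productive Trbv1 clone of control replicate 2 held 7510 templates, 18.2% of the productive templates (95% Wilson interval 17.8% to 18.6%) and 81.1% of the Trbv1 templates of that tumor. That of ANT008 replicate 2 held 2906 templates, 8.82% of productive templates (8.52% to 9.13%) and 70.6% of its Trbv1 templates. Each was the most frequent clone of its tumor over all V genes. In the other 14 samples the leading Trbv1 clone ranked between 4 and 102 among all productive clones.

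The remaining leading clones were of a smaller order. In control replicates 1, 3 and 4 the leading Trbv1 clone held 1.42%, 1.09% and 0.660% of productive templates. In ANT008 replicates 1, 3 and 4 it held 0.243%, 0.234% and 0.361%, and in anti-PD-1 replicates 1 to 4 it held 1.66%, 0.285%, 1.63% and 0.655%. In combination replicates 1 to 4 it held 0.452%, 0.844%, 1.09% and 0.0829%. Only in combination replicate 4 did every Trbv1 clone stay below 0.1% of productive templates. The 10 most frequent Trbv1 clones held 16.99% of Trbv1 templates in that sample and 91.9% in control replicate 2. Over the 16 samples, 18 of the 328 productive clones that exceeded 0.5% of their sample used Trbv1, a share of 5.49%, near its share of unique rearrangements.

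The leading Trbv1 clone of each sample was then taken out of both the Trbv1 count and the productive total. The Trbv1 share of the remaining productive templates was 3.83%, 5.18%, 4.43% and 2.59% in control replicates 1 to 4 and 2.13%, 4.03%, 1.73% and 2.25% with ANT008. It was 5.25%, 2.24%, 4.16% and 2.26% with anti-PD-1 and 3.804%, 2.53%, 2.35% and 2.88% with the combination. Control replicate 2 then lay within the range of the anti-PD-1 samples. The largest out-of-frame Trbv1 rearrangement also varied in size. It held 5.30% of out-of-frame templates in control replicate 2, with 1232 templates, and between 0.100% and 2.39% in the other samples.

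Each mouse had a leading clone of its own. Of the 16, 4 used Trbj2-2, 4 used Trbj2-7, 3 used Trbj1-5, 2 used Trbj1-4, and Trbj2-1, Trbj2-4 and Trbj2-5 led once each. All 16 carried at least 1 inserted nucleotide, and 11 had a CDR3 starting with CTCSA. CDR3s ran from 11 to 16 residues. Those short enough to print in full included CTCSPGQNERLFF in anti-PD-1 replicate 3, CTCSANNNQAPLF and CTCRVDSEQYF in ANT008 replicates 1 and 3, and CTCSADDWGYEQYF in combination replicate 1. For 3 of the 16, the same nucleotide rearrangement occurred in another mouse, and there it never held more than 1 template. Among the 28 productive Trbv1 clones with at least 100 templates in a mouse, 7 had the same nucleotide rearrangement in another mouse. The clone of control replicate 2 was found with 1 template in anti-PD-1 replicate 4, and that of ANT008 replicate 2 with 1 template each in ANT008 replicate 1 and anti-PD-1 replicate 4. By CDR3 amino acid sequence, that of anti-PD-1 replicate 3 also occurred in 2 other mice through other rearrangements, with 250 templates in all and up to 0.597% of productive templates. Whether the single copies came from the mouse or were carried between samples was not tested.

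The 4 leading clones that used Trbj2-2 all had CDR3s of 16 residues, and the lines printed above show the same closing stretch of J bases in each. Grouping them by V and J segment fixes most of the start and end of the CDR3, so few residues were free to differ. The CDR3 of control replicate 2 differed from those of ANT008 replicate 2, combination replicate 2 and combination replicate 3 by 2 residues each. The other pairs differed by 3 or 4 residues. The clones had different inserted bases and different trimming of V, with 0 bases deleted from V in control replicate 2, 3 in ANT008 replicate 2, 4 in combination replicate 2 and 1 in combination replicate 3. Rearrangements of Trbv1 with Trbj2-2 and 16 residues numbered 141, which is 2.23% of unique productive Trbv1 rearrangements, but held 39.1% of all productive Trbv1 templates, 35.2% in these 4 clones alone. Control replicate 2 held 7759 of these 12505 templates, and without that mouse the shares were 20.9% and, for the other 3 clones, 16.5%. Another 9 CDR3s in 7 other mice differed from that of control replicate 2 by 1 residue, with 127 templates in all and at most 0.345% of productive templates in a mouse. At a distance of 2 residues lay 19 CDR3s in 13 other mice, each counted once per mouse. The CDR3s of the other 3 leading clones were among these, so a distance of 2 residues was not particular to them. Trbj2-2 accounted for 84.2% of Trbv1 templates in control replicate 2, 71.9% in ANT008 replicate 2, 45.2% in combination replicate 3, 34.6% in control replicate 1 and 27.0% in combination replicate 2, and for at most 12.7% in the other 11 mice. The group was noticed after the leading clones had been listed, and these values are a description.

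**Figure D3:**
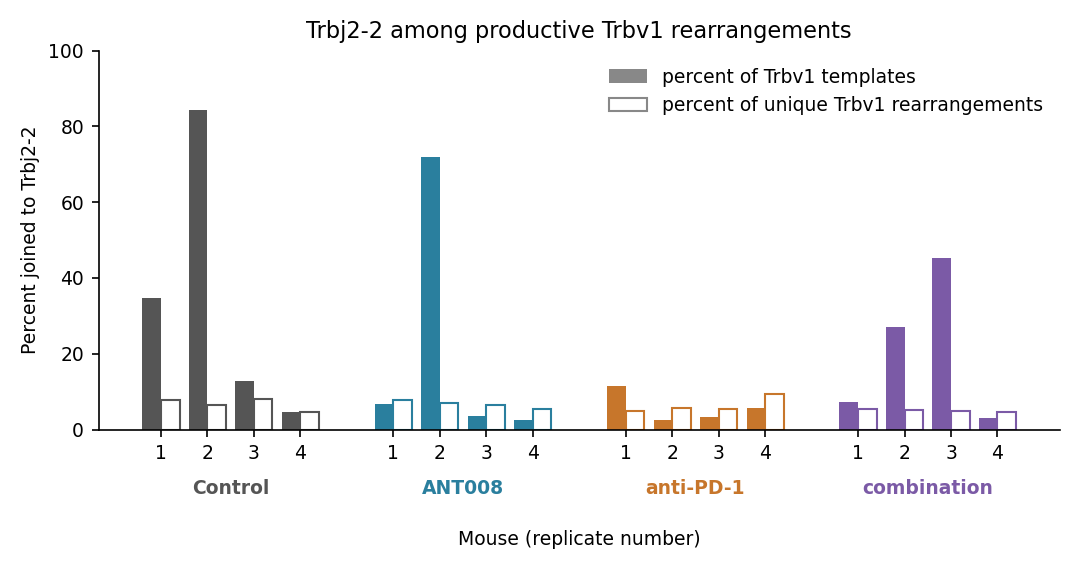
Percent of productive Trbv1 rearrangements joined to Trbj2-2 in each of the 16 mice, by templates (filled) and by unique rearrangements (open). By templates the share runs from 2.51% to 84.2%, while by unique rearrangements it runs from 4.69% to 9.35%.

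J pairing was compared within each mouse between Trbv1 and all other V genes, over unique productive rearrangements. Trbv1 joined Trbj1-1 more often and Trbj2-7 less often than the other V genes did, in every mouse. The Trbj1-1 share of Trbv1 rearrangements was 9.23%, 11.0%, 11.6% and 10.9% in control replicates 1 to 4 and 11.3%, 12.1%, 14.6% and 9.09% with ANT008. It was 14.0%, 11.3%, 10.5% and 12.1% with anti-PD-1 and 10.2%, 10.3%, 13.1% and 9.31% with the combination. Against the other V genes the mean was 11.3% ± 1.62 beside 8.62% ± 0.267 (SD, n = 16), a difference of 2.67 points that was positive in 16 of 16 samples (adjusted p 0.000214, exact sign-flip permutation test).

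The Trbj2-7 share of Trbv1 rearrangements was 19.5%, 15.4%, 18.1% and 17.2% in control replicates 1 to 4 and 15.4%, 18.4%, 14.6% and 17.1% with ANT008. It was 15.7%, 19.8%, 20.1% and 18.7% with anti-PD-1 and 18.3%, 16.1%, 18.3% and 17.8% with the combination. The mean was 17.5% ± 1.68 beside 21.3% ± 0.906 for the other V genes, a difference of -3.76 points that was negative in 16 of 16 samples (adjusted p 0.000214, exact sign-flip permutation test). Trbj1-6 was also higher with Trbv1, at 4.50% ± 1.48 beside 2.99% ± 0.251, in 12 of 16 samples (adjusted p 0.00669, same exact test). This held in 4 of 4 control, 4 of 4 ANT008 and 3 of 4 combination mice. With anti-PD-1 it held in 1 of 4 mice, with a mean difference of -0.00705 points, and the difference between groups was not tested. Trbj2-6 also passed but was too rare to read: it was at 0 with Trbv1 and at 0.0125% with the others, a share that would give 0.789 Trbv1 rearrangements in all. It was at 0 in 10 of the 20 V genes tested.

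In all, 4 of 14 J segments passed for Trbv1, beside 31.8% of the 280 pairs of a V and a J gene tested the same way over the 20 V genes with at least 1000 productive rearrangements. Without Trbj2-6 these counts were 3 of 13 and 31.2% of 260. Trbv1 ranked 10 among these V genes by it and 5 by the size of its largest difference. The 3 differences kept their direction in out-of-frame rearrangements, with adjusted p-values of 0.0327 for Trbj1-1, 0.0340 for Trbj1-6 and 0.00128 for Trbj2-7 by the exact permutation test. By templates, in which large clones weigh most, Trbj1-1 and Trbj1-6 did not pass (adjusted p 0.0920 and 0.192, exact permutation test), and the Trbj2-7 difference widened to -13.1 points (adjusted p 0.0137, same exact test). The Trbj2-7 share of Trbv1 templates averaged 14.1% in control, 13.9% in ANT008, 19.2% in anti-PD-1 and 19.5% in combination mice. By unique rearrangements these means were 17.6%, 16.4%, 18.6% and 17.6%. The wider gap thus lay mostly in a higher Trbj2-7 share of templates among the other V genes. Trbj2-2, the segment of the largest clones, was used by 6.19% ± 1.40 of unique Trbv1 rearrangements beside 5.58% ± 0.389 with other V genes, and was higher in 8 and lower in 8 samples.

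**Figure D4:**
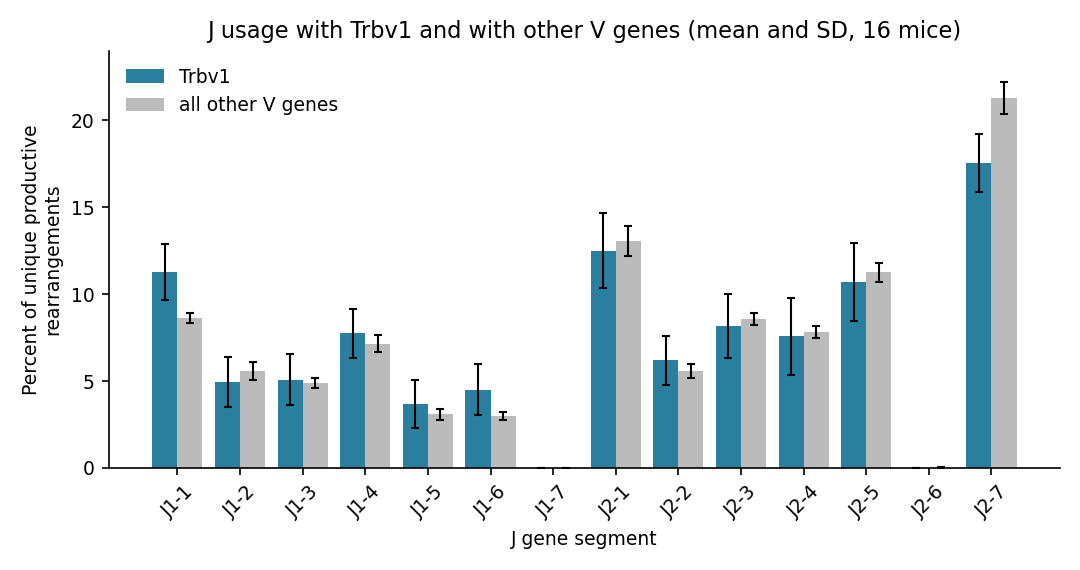
Percent of unique productive rearrangements that used each J segment, with Trbv1 (blue) and with all other V genes (grey). Bars are means over 16 mice and lines are SD. Trbj1-1 stands higher (11.3% beside 8.62%) and Trbj2-7 lower (17.5% beside 21.3%) with Trbv1.

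Junctions built on Trbv1 were longer and less trimmed than those built on other V genes. The mean CDR3 length of unique productive Trbv1 rearrangements ran from 41.8 to 43.4 nucleotides, with a mean of 42.97 ± 0.396 beside 41.97 ± 0.184 for other V genes (SD, n = 16). The difference of 1.00 nucleotides was positive in 16 of 16 samples (adjusted p 7.02e-05, exact sign-flip permutation test). Weighted by templates it was 2.18 nucleotides (adjusted p 0.000501, same exact test), a value on which the large clones weigh. The template-weighted length of Trbv1 ran from 40.4 nucleotides in ANT008 replicate 3 to 47.1 in control replicate 2, with 46.8 in ANT008 replicate 2. The most common length was 15 residues with Trbv1 (26.5% ± 1.64), closely followed by 14 (25.5% ± 2.43), and 14 with other V genes (30.0% ± 0.735). Of the 23 V genes tested, 87% differed from the rest in CDR3 length, and Trbv1 ranked 3 from the longest. Untrimmed Trbv1 gives 17 nucleotides to the CDR3, beside a mean of 16.2 for the other V genes as used. Several other V genes, such as Trbv2, Trbv3 and Trbv5, also give 17. With the V bases still present after trimming taken out, the CDR3 averaged 27.96 ± 0.380 nucleotides with Trbv1 and 28.41 ± 0.184 with the others. With the untrimmed V length subtracted instead, the averages were 25.97 and 25.74.

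Fewer bases had been lost from the end of Trbv1. On average 1.99 ± 0.0860 bases were deleted from it and 2.68 ± 0.0433 from other V genes, a difference of -0.683 that was negative in 16 of 16 samples (adjusted p 4.68e-05, exact sign-flip permutation test). Of the 23 V genes, 82.6% passed this test, 9 of them with fewer bases deleted, and Trbv1 ranked 18 from the most trimmed. Trbv2 (1.47), Trbv12-2 (1.59), Trbv31 (1.75), Trbv12-1 (1.81) and Trbv5 (1.90) lost fewer bases than Trbv1. The V end was intact in 34.3% ± 2.70 of productive Trbv1 rearrangements and in 22.7% ± 0.796 of the others. Inserted nucleotides averaged 3.34 ± 0.197 with Trbv1 and 3.57 ± 0.0725 with other V genes, lower in 14 of 16 samples by 0.230 on average (adjusted p 0.000281, exact sign-flip permutation test), while 78.3% of V genes passed. The share of junctions with no inserted base was 9.96% ± 2.40 with Trbv1 and 8.83% ± 0.619 with the others, which did not pass (adjusted p 0.0978, exact sign-flip permutation test), and 39.1% of V genes did. Weighted by templates, the difference in inserted nucleotides was -0.0129 and did not pass (adjusted p 0.9505, exact permutation test).

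**Figure D5:**
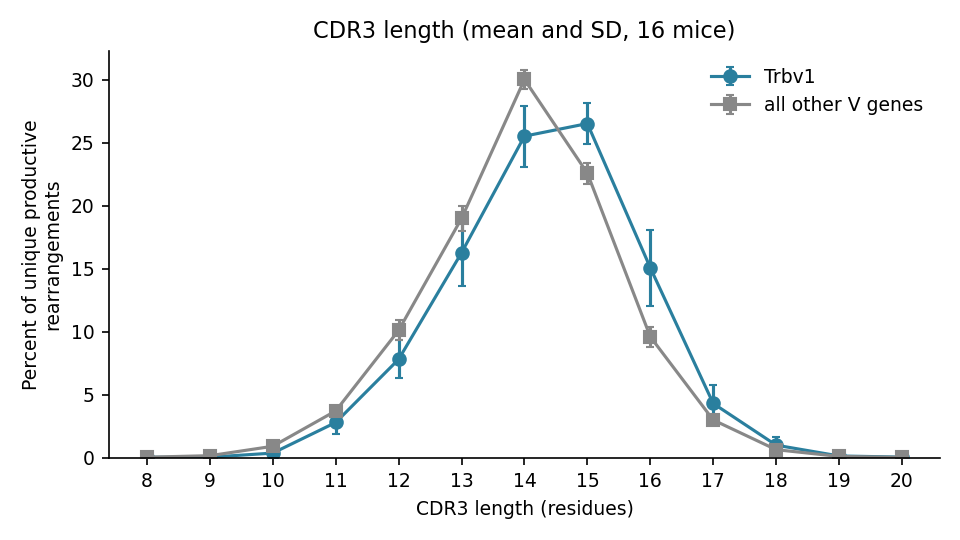
CDR3 length in residues of unique productive rearrangements with Trbv1 (circles) and with all other V genes (squares), as the mean percent over 16 mice with SD. The Trbv1 curve peaks at 15 residues (26.5%), with 25.5% at 14, and that of the other V genes peaks at 14 (30.0%).

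D usage is given as a description. Trbd1 was assigned in 44.2% ± 3.91 of productive Trbv1 rearrangements and 42.1% ± 0.736 of the others (SD, n = 16), and Trbd2 in 35.5% ± 3.77 and 39.3% ± 1.37. No D was resolved in 20.3% ± 2.25 and 18.6% ± 0.989. The gap for Trbd2 was of the size of that for Trbj2-7, and these shares were given no test.

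Few Trbv1 rearrangements were found in more than 1 mouse, and the same was true of other V genes. Of 6132 distinct productive nucleotide rearrangements, 141 (2.30%) occurred in at least 2 samples, and the most widespread in 8. For other V genes the share was 2.57%, and the most widespread was in 12. Of these 141, 128 held a single template in at least 1 of their samples. By CDR3 amino acid sequence, 392 of 5460 (7.18%) occurred in at least 2 samples, beside 7.09% for other V genes. Of 3221 distinct out-of-frame rearrangements 17 did so, which is 0.528%. The 39 CDR3s found in at least 4 samples (0.714%, beside 0.848% for other V genes) had fewer inserted bases and were shorter than the rest. Their rearrangements averaged 1.25 inserted nucleotides and 13.4 residues, beside 3.45 and 14.4 for all others, and 29.4% had no inserted base, beside 8.55%. The gap was smaller for the 8 CDR3s found in at least 8 samples. Their rearrangements averaged 1.67 inserted nucleotides and 13.7 residues, beside 3.39 and 14.4, and 13.2% had no inserted base, beside 9.38%. Whether shared CDR3s of other V genes differ from the rest in the same way was not examined.

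The Trbj1-2 CDR3 printed above, found in 11 samples, held the most templates of the 2 most widespread Trbv1 CDR3s. It had 15 residues and was encoded by 8 different nucleotide rearrangements, the commonest of them in 7 samples. It held 38, 42, 12 and 147 templates in control replicates 1 to 4, which is 0.146%, 0.102%, 0.0315% and 0.394% of productive templates. With ANT008 it held 30 templates in replicate 1 (0.132%) and 111 in replicate 4 (0.534%), where it was the most frequent Trbv1 CDR3 by amino acid sequence, and was not found in replicates 2 and 3. With anti-PD-1 it held 86 in replicate 1 (0.267%) and 284 in replicate 3 (0.391%) and was not found in replicates 2 and 4. With the combination it held 3, 5 and 22 in replicates 1, 3 and 4 and was not found in replicate 2. It was thus present in all control mice and in part of each treated group, at levels that overlapped between the groups.

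The other 5 widespread CDR3s were at low levels. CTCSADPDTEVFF, joined to Trbj1-1, was found in 11 samples with 1 to 9 templates, and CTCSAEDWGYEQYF, joined to Trbj2-7, in 10 samples with 1 to 19 templates. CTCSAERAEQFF (Trbj2-1) and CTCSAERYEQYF (Trbj2-7) were found in 9 samples each, with at most 16 and 10 templates. A further CDR3 of 15 residues joined to Trbj2-1 was found in 9 samples, with 349 templates in control replicate 2 (0.847%) and a median of 3 where present. Each of the 6 was encoded by at least 6 nucleotide rearrangements.

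Across the 16 samples, the V genes whose share of productive templates moved most like that of Trbv1 were Trbv30, Trbv21 and Trbv31, with Spearman coefficients of 0.54, 0.39 and 0.36. All shares of a sample sum to the same total and share its depth, and Trbv30 and Trbv21 averaged 0.117% and 0.0872% of productive templates, so these values are a description only.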

How the data were processed

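Samples labelled as T cells of 16 tumors were surveyed with the immunoSEQ assay for mouse TCRβ, in which V and J primers amplify the CDR3. The deposited values gave, for each unique rearrangement of 87 nucleotides, its template count, a whole-number count estimated by the service, and per the file headers its fraction of all and of productive templates in the sample. The labels mention a synthetic immune repertoire and primer amplification without saying how they were used, and unequal amplification of V primers would change template counts more than unique rearrangements. Columns for sequencing reads were empty. The aligner and genome build are not given in the sources used here, and no coordinates are printed. V gene names were matched to symbols of the RefSeq annotation of GRCm38.p6 (35 of 35). V genes left unresolved made up at most 0.0433% of productive templates.

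Shares were computed from template counts and from unique rearrangements. Treatment contrasts were fitted with the edgeR quasi-likelihood test (edgeR 4.0.16, R 4.3.3) over 33 V genes with all 16 samples in 1 fit, library sizes fixed at the sample totals and an adjusted p threshold of 0.05. DESeq2 1.42.0 was an alternative. Within-sample comparisons used an exact two-sided sign-flip permutation test over 65536 sign patterns, for which 3.05e-05 is the smallest p, with Benjamini-Hochberg adjustment over V or J genes. V genes entered the J comparison with at least 1000 productive rearrangements, and the junction tests with rearrangements in all samples and at least 200 productive ones in all. Python 3.11.15, numpy 2.4.6, pandas 2.3.3, scipy 1.17.1 and matplotlib 3.10.9 were used, and the scripts were tested on simulated data. Groups came from the titles, and the treatment tags in the file headers named the same group for all 16 files. The headers mostly carried other mouse numbers than the titles, and replicate numbers were not taken to pair mice. Alternatives included other library scaling, a low-count filter, removal of rearrangements with 1 template or of leading clones, equal depth, the replicate number as a block and each sample left out.

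Trbv1, the lists and the tests were chosen with earlier results of these data known. Named items were Trbv1, the leading Trbv1 clone of each sample, the 6 CDR3s in most samples, V genes called in a treatment contrast, the 3 V genes most like Trbv1, and the J genes called.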

Additional observations from a re-analysis of the deposited data

Results flagged for a closer look

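Of 68 sets of 4 mice checked for a sample far from the other 3 of its group, over 17 measures of Trbv1, 8 held one. The rule marks about 1 in 20 sets by chance where values are normally distributed. Measures that follow clone size need not be, so the 8 are not compared with that rate. In 7 of the 8 sets the mouse far from the others was replicate 2 of its group, and several measures share the same clones. Among control mice, replicate 2 had 22.5% of productive templates in Trbv1, next to 5.48% in the nearest mouse, and its leading clone held 81.1% of Trbv1 templates, next to 27.3%. The out-of-frame share of unique rearrangements was also highest there, at 5.29% next to 4.45%. Among ANT008 mice, replicate 2 had 12.5%, next to 2.60%, with 70.6% of Trbv1 templates in the leading clone, next to 13.9%. Combination replicate 2 had the lowest share of unique rearrangements of its group, both productive (4.40%, next to 5.09%) and out of frame (4.38%, next to 4.80%). ANT008 replicate 3, the sample with 123 productive Trbv1 rearrangements, had 2.80 inserted nucleotides per Trbv1 junction, next to 3.40.

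Over 19 differences and 114 pairs of groups scanned, 2 pairs of groups went in opposite directions in every mouse, both for 1 J segment. The use of Trbj1-3 by Trbv1, relative to other V genes of the same mouse, was higher in 4 of 4 control mice, by 1.29 points on average, lower in 4 of 4 anti-PD-1 mice, with a difference of -1.23 points, and higher in 4 of 4 combination mice, by 0.884 points. With ANT008 the mean difference was -0.133 points, higher in 2 of 4 mice. The difference between groups was not tested.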

How the results depend on the processing

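By templates, the Trbv1 log2 fold changes with 1 mouse left out ran from -1.98 to 0.0696 for ANT008, -1.30 to -0.04 for anti-PD-1, -1.66 to -0.41 for the combination and -0.43 to 1.61 for the interaction (lowest edgeR adjusted p 0.00569, 0.211, 0.0374 and 0.193). With the replicate number as a block they were -0.90, -0.53, -0.94 and 0.49, and no call changed. Same-numbered mice did not all deviate together: over 24 pairs r ran from -0.53 to 0.65 by templates, above 0.1 in 8, and from -0.52 to 0.55 by unique rearrangements, above 0.1 in 10. With leading clones left out they were -0.66, -0.20, -0.47 and 0.39. Dunnett's comparison with exact permutation gave p 0.622, 0.536 and 0.333. In out-of-frame rearrangements the interaction was -0.0309. The number of V genes called ranged from 0 to 3 over the settings.

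By unique rearrangements no setting brought a call for Trbv1. Left-out mice gave -0.19 to -0.12 for ANT008, -0.13 to -0.06 for anti-PD-1, -0.10 to -0.02 for the combination and 0.14 to 0.22 for the interaction. The sign turned for anti-PD-1 without rearrangements of 1 template (0.0859) and for the combination in out-of-frame rearrangements (0.0240). The same comparison gave exact permutation p 0.133, 0.358 and 0.694, and at equal depth of 7180 templates the ANT008 value was -0.24 (edgeR adjusted p 0.281).

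The productive surplus ran from 0.326 to 0.404 points with 1 mouse left out. It was 3.22 points against stop-codon rearrangements (adjusted p 0.000101, exact permutation test), a value from which no support is drawn. By templates it was 1.81 points (adjusted p 0.177) and without rearrangements of 1 template 0.432 (adjusted p 0.112), by the same exact test. The difference in inserted nucleotides fell to -0.0129 by templates, and the share without insertions turned to -1.93 points by templates. Left-out mice gave 0.771 to 1.38 points for the latter, which passed without ANT008 replicate 4 (adjusted p 0.0237, exact permutation test). Trbj2-6 lost its call without any of 8 mice, and its difference turned to 0.0253 points in out-of-frame rearrangements. Trbj2-2 turned to -0.171 points there and was 15.8 points by templates (adjusted p 0.0329, exact permutation test), a value from the same large clones that drew attention to it, from which no support is drawn. Between 3 and 5 J genes were called with 1 mouse left out. Defining clones by CDR3 changed the leading clone of 1 sample, ANT008 replicate 4.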
